A study of Arabidopsis thaliana with 9 samples.

Results

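The 57 genes described here encode the core machinery of the Arabidopsis thaliana cell cycle, and they were taken by locus name from the 33602 loci counted in each of 9 root tip libraries. They comprise 8 A-type, 9 B-type and 7 D-type cyclins, 5 cyclin-dependent kinases (CDKs), 10 CDK inhibitors (KRP1 to KRP7, SIM, SMR1 and the inhibitory kinase WEE1), 5 activators of the anaphase-promoting complex (APC/C), 3 Aurora kinases, the 6 MCM helicase subunits, 2 PCNA genes, and E2FA with RBR1. The rule names loci and uses no measured value, although earlier results of these data were known when it was written. All 57 passed the filter on low counts that left 21229 loci for testing.

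A cyclin binds a CDK and switches it on, and successive cyclins drive successive steps of the cycle. D-type cyclins respond to growth signals and, with CDKA;1, phosphorylate the retinoblastoma protein RBR1, which frees E2F factors to switch on replication genes such as the MCM and PCNA genes. A2- and B-type cyclins act with CDKA;1 and the plant-specific CDKB kinases in G2 and mitosis. KRP, SIM and SMR proteins restrain CDKs, and the APC/C, directed by CDC20 in mitosis and by CCS52 proteins at mitotic exit and in endoreduplication, marks cyclins for destruction. In the root these genes act mainly in the meristem, close to the tip. The genes were grouped here into G1 and entry (10 genes: D-type cyclins, CDKA;1, E2FA and RBR1), S (11 genes: CYCA3 cyclins, MCM and PCNA genes), G2 and M (24 genes: CYCA1;1, CYCA2 and B-type cyclins, CDKB genes, CDC20.1, CDC20.2, CCS52B and the Aurora kinases), and inhibitors and exit (12 genes: the inhibitors with CCS52A1 and CCS52A2).

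Root tips of 2 to 3 mm were collected 5 days after germination from wild type Col-0 and from the mutants stop1 and almt1 in the same ecotype, for which the labels give no allele. The zinc-finger factor STOP1 switches on ALMT1, whose product is a channel through which roots exude malate, and the series title describes the mutants as insensitive to low phosphate. Each genotype was grown at 1 mM phosphate (high phosphate) and at 5 µM phosphate (low phosphate). A further wild-type sample (called low iron here) came from low-phosphate medium to which no iron was added and which held 100 µM of the iron chelator ferrozine. For both mutants a further sample came from low phosphate with 1 mM L-malate. Every group had 1 library, so none had a replicate of its own. The comparisons below use edgeR's quasi-likelihood test with stop1 and almt1 taken as 2 examples of 1 mutant class, so the spread between the mutants stands in for that of wild type. The p-values therefore measure the spread between these mutant samples, which may be technical or lie between the 2 genotypes, and not between independent growths. The wild-type libraries add nothing to that spread.

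Gene counts ranged from 20619740 to 37189056 per library. The library of wild type at low phosphate was the shallowest, and 44.9% of its recorded reads aligned at more than 1 place, against 4.19% to 14.3% in the other 8. The share of reads that fell on more than 1 gene was 2.55% to 2.65% with low iron or malate and 0.956% to 1.69% in the 6 libraries without either, so these treatments and this library set cannot be told apart. ALMT1 stood at 46.9 to 135 CPM (counts relative to library size after TMM scaling) in wild type and at 0 to 0.0699 CPM in stop1. STOP1 itself stood at 105 to 174 CPM in the stop1 libraries and ALMT1 at 15.2 to 97.5 CPM in the almt1 libraries, so transcript level does not check the almt1 label. In bulk tips, fewer cells of a type and less RNA per cell cannot be told apart.

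Some of the start regions hold sequence elements of the cycle's known regulators. Windows of genes named in the results are shown first, and only ones that hold such an element were picked. The letters AACGG are the core of the mitosis-specific activator element that MYB3R factors bind, and TTTCCCGC and TTTGGCGC are sites known for E2F. Each window spans 250 bases before to 50 after the gene start in the RefSeq annotation of TAIR10.1, and both strands were searched. Capitals mark AACGG (or its reverse complement) in the genes of the first 3 windows and the E2F letters in the MCM windows. CYCB2;3 and CYCB1;3 are B-type cyclins that fell in wild type at low phosphate, KRP7 is the inhibitor with the largest fall there, and MCM5 and MCM4 are helicase subunits that were higher with low iron and with malate.
CYCB2;3 (AT1G20610, chr1:7137779-7138078, minus strand): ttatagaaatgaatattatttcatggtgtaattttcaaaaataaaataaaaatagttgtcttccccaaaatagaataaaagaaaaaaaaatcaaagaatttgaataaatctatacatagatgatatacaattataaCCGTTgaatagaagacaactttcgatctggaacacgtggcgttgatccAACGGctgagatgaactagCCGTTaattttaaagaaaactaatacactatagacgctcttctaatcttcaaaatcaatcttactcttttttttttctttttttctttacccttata
CYCB1;3 (AT3G11520, chr3:3627224-3627523, minus strand): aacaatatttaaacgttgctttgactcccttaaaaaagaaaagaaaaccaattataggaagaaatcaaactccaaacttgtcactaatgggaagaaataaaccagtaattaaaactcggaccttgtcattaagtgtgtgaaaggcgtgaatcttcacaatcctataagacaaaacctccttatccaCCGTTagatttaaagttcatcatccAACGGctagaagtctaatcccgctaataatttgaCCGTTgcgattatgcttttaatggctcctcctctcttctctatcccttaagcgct
KRP7 (AT1G49620, chr1:18366695-18366994, minus strand): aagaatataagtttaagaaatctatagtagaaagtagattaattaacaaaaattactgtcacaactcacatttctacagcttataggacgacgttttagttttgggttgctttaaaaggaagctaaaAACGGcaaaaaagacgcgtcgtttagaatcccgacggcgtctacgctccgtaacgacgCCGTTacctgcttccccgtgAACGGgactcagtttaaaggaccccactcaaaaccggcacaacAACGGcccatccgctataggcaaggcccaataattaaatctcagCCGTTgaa
MCM5 (AT2G07690, chr2:3527451-3527750, minus strand): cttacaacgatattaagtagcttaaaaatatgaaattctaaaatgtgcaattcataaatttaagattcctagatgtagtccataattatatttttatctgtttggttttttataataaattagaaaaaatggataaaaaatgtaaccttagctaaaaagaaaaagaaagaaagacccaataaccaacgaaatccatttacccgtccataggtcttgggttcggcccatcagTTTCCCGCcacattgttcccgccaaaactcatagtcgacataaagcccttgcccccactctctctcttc
MCM4 (AT2G16440, chr2:7130680-7130979, minus strand): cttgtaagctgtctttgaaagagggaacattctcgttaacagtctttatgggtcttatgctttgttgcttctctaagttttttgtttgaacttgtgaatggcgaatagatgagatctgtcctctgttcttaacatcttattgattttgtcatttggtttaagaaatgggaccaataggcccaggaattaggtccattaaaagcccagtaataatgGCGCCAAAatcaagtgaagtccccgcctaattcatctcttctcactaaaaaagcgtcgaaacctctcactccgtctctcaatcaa
AACGG occurred in 14 of the 24 windows of G2 and M genes (58.3%) and in 24.7% of the windows of all 27443 protein-coding genes. KRP7 held 5 copies, and CYCB2;3 and CYCB1;3 held 3 each. TTTCCCGC occurred in the windows of MCM2, MCM5 and MCM6 among the 11 S genes and also in that of RBR1, against 0.798% of all windows. TTTGGCGC occurred in those of MCM3 and MCM4 and in that of CYCD3;3, against 0.434% of all windows. The window of MCM7 held neither of these E2F sequences. Neither E2F sequence occurred in any of the 24 G2 and M windows or the 12 inhibitor and exit windows. At background shares this low so few windows would seldom hold either, so their absence sets no class apart. Of the 17 genes that fell in wild type at low phosphate, 7 held AACGG (41.2%), and of all 57 genes 26 did (45.6%).

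**Figure D1:**
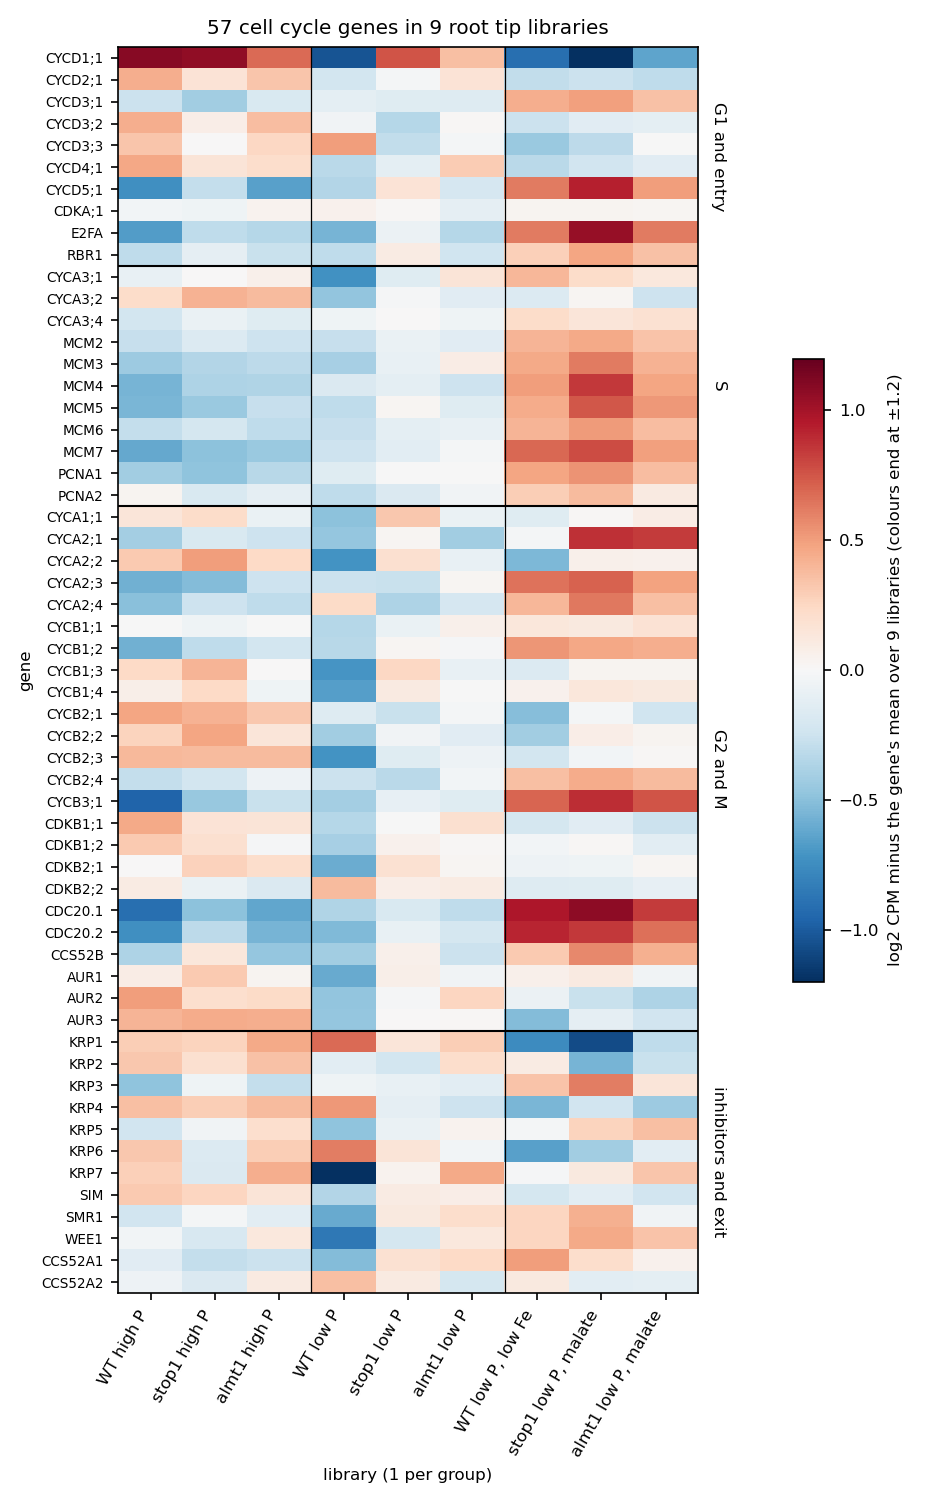
Each row is 1 of the 57 genes and each column 1 library, and colour gives log2 CPM minus the gene's mean over the 9 libraries, and rows are grouped by phase. Wild type at low phosphate was the lowest of 9 libraries for 13 of 24 G2 and M genes, against 14.4% of all loci tested. It was also the lowest for 6 of 12 inhibitor and exit genes, and the highest for 4 of these 12, against 19.6% of all loci for the highest. The low-iron and malate columns were the 3 highest for 9 of 11 S genes, against 20.3% of all loci.

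Levels are given below in CPM, in the order high phosphate, low phosphate and low iron for wild type and high phosphate, low phosphate and malate for each mutant. Summed over the 24 G2 and M genes, wild type stood at 496, 377 and 549 CPM, stop1 at 524, 489 and 589, and almt1 at 479, 480 and 554. The lowest G2 and M sum of the 9 libraries was that of wild type at low phosphate. Summed over the 11 S genes, wild type stood at 289, 278 and 438 CPM, stop1 at 305, 325 and 482, and almt1 at 309, 323 and 414. Here the low-iron and malate libraries stood above the other 6. CDKA;1, the CDK that acts throughout the cycle, was the steadiest and stood between 45.1 and 50.2 CPM in all 9 libraries.

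Wild type at low phosphate was first set against wild type at high phosphate. Of the 57 genes 17 fell and none rose (edgeR adjusted p under 0.05), which is 29.8%, where 21.8% of all 21229 loci tested passed in either direction and 9.79% fell. Genes of G2 and M made up 11 of the 17: CYCA2;2, CYCB1;3, CYCB1;4, CYCB2;2, CYCB2;3, CDKB1;1, CDKB1;2, CDKB2;1 and the 3 Aurora kinases. The median log2 change was -0.61 over the 24 G2 and M genes, 0.04 over the S genes, 0.04 over the G1 and entry genes and -0.31 over the inhibitors and exit genes, against 0.07 over all loci tested. With an offset for exonic length the last 2 class medians changed sign, to -0.20 for G1 and entry and 0.08 for inhibitors and exit, and with length and GC they were -0.21 and 0.10. With total gene counts as scaling 2 of the 57 genes rose and 16 fell. None of the 6 MCM genes and neither PCNA gene passed in this comparison.

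Among the mitotic cyclins, CYCB2;3 changed most. It stood at 35.9, 16.7 and 23.6 CPM in wild type, at 35.8, 24.8 and 26.8 in stop1 and at 35.8, 26.4 and 27.8 in almt1. All 3 genotypes were alike at high phosphate, and wild type at low phosphate was the lowest of the 9 libraries. The fall in wild type was 2.15-fold (log2 change -1.11, SE 0.16, edgeR adjusted p = 0.0108). CYCB1;3 stood at 31.8, 16.4 and 24.0 CPM in wild type, 35.7, 32.0 and 27.5 in stop1 and 26.9, 25.4 and 27.5 in almt1, and its log2 change in wild type was -0.95 (SE 0.20, adjusted p = 0.0249). CYCA2;2, an A2-type cyclin, stood at 9.69, 4.76 and 5.38 CPM in wild type, 11.1, 8.91 and 8.15 in stop1 and 9.24, 7.33 and 8.08 in almt1. The low-phosphate and low-iron wild-type tips were below all other libraries for this gene, which fell by 1.03 on the log2 scale (SE 0.23, adjusted p = 0.0294). CYCB1;1, a widely used marker of dividing cells, stood at 20.6, 16.4 and 22.7 CPM in wild type and between 19.6 and 23.3 CPM in the 6 mutant libraries, and its change did not pass.

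Of the 4 CDKB kinases, which are specific to plants, 3 fell in wild type. CDKB1;1, a CDK of G2 and mitosis, stood at 60.2, 34.8 and 38.1 CPM in wild type, 49.3, 43.7 and 39.97 in stop1 and 48.9, 50.2 and 36.8 in almt1. CDKB1;2, its close relative, stood at 19.6, 11.9 and 15.4 CPM in wild type, 18.0, 16.4 and 15.9 in stop1 and 15.6, 15.9 and 14.4 in almt1. Both were lowest in wild type at low phosphate, and they fell there by 0.79 (SE 0.17, adjusted p = 0.0271) and 0.72 (SE 0.18, adjusted p = 0.0360) on the log2 scale, in that order. CDKB2;1 stood at 30.9, 20.4 and 29.5 CPM in wild type, 37.2, 35.0 and 29.6 in stop1 and 35.7, 31.4 and 31.3 in almt1. The other member of that pair, CDKB2;2, went from 30.8 CPM at high to 37.3 CPM at low phosphate in wild type and did not pass. All 4 CDKB genes overlap another counted locus.

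Aurora kinases phosphorylate histones and spindle proteins in mitosis, and all 3 fell in wild type. AUR2 stood at 32.9, 16.7 and 22.2 CPM in wild type, 26.8, 23.1 and 19.4 in stop1 and 27.2, 27.8 and 17.9 in almt1, with a log2 change of -0.97 (SE 0.19, adjusted p = 0.0219). AUR1 stood at 28.3, 17.5 and 27.7 CPM in wild type, 33.0, 27.9 and 28.7 in stop1 and 27.2, 25.8 and 25.7 in almt1. AUR3 stood at 10.7, 5.89 and 5.66 CPM in wild type, 10.996, 8.14 and 7.54 in stop1 and 10.95, 8.20 and 6.92 in almt1. Wild type at low phosphate was the lowest library for AUR1 and AUR2, and low iron was the lowest for AUR3. All 3 genes overlap another counted locus, and the libraries do not keep the strand, so reads in the overlap cannot be assigned to 1 gene.

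Outside G2 and M, the D-type cyclin CYCD1;1 had the largest change of the 57 genes. It stood at 43.7, 9.96 and 10.96 CPM in wild type, 42.9, 34.6 and 7.87 in stop1 and 32.7, 26.2 and 13.2 in almt1. The 3 high-phosphate and both mutant low-phosphate libraries were at 26.2 CPM or more, and the other 4 were at 13.2 CPM or less. In wild type this cyclin fell 4.39-fold (log2 change -2.13, SE 0.46, edgeR adjusted p = 0.0351), and it overlaps another counted locus. CYCD2;1 and CYCD4;1 fell by 0.66 and 0.79 on the log2 scale and the other 4 D-type cyclins did not pass. The sole S gene that fell was the cyclin CYCA3;2, from 62.9 to 38.9 CPM.

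Among the inhibitors 2 of 10 fell and none rose. That is 20.0%, near the 21.8% of all loci that passed in either direction, of which 9.79% of all loci fell. KRP7, a CDK inhibitor of the KRP family, stood at 5.23, 1.52 and 4.24 CPM in wild type, 3.80, 4.40 and 4.65 in stop1 and 5.79, 5.85 and 5.38 in almt1. Its level in wild type at low phosphate was below that in every other library, and the other 8 overlapped across genotypes and treatments. KRP7 fell 3.43-fold (log2 change -1.78, SE 0.31, adjusted p = 0.0167). SIM, which promotes the switch from division to endoreduplication in trichomes, went from 41.5 to 26.2 CPM and fell by 0.66 (SE 0.15, adjusted p = 0.0303).

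**Figure D2:**
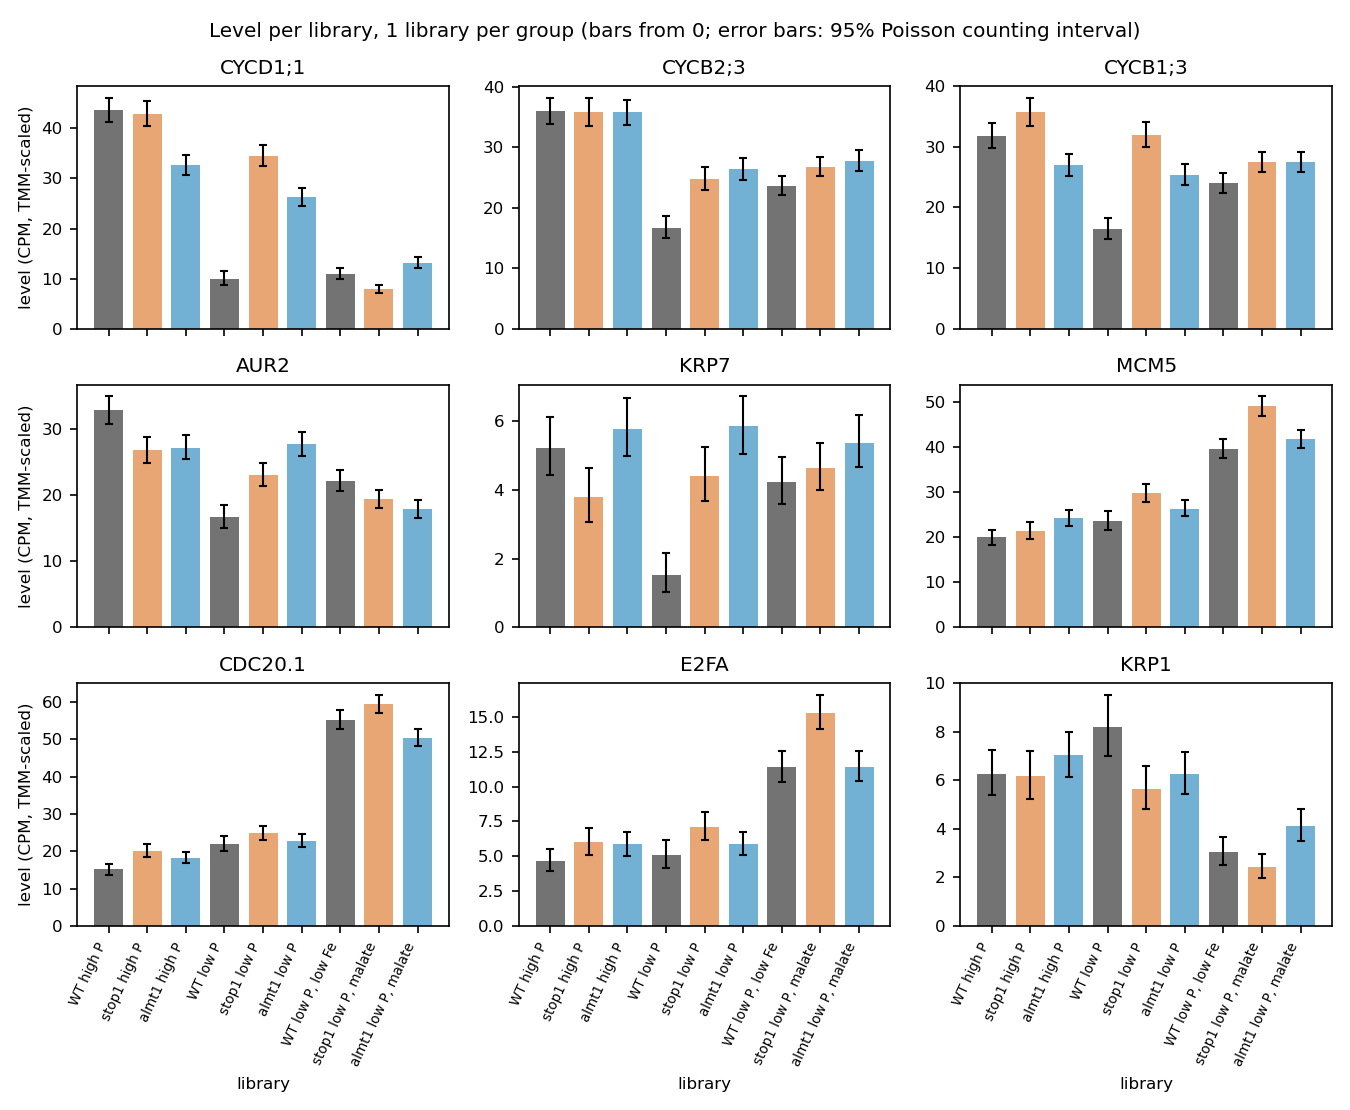
Bars give the level of 9 genes in CPM in each library, 1 library per group, with 95% Poisson counting intervals that cover counting error only. Wild type at low phosphate was the lowest bar for CYCB2;3, CYCB1;3, AUR2 and KRP7, and the low-iron and malate bars were the highest for MCM5, CDC20.1 and E2FA and the lowest for KRP1.

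How many genes passed in wild type depended on which mutant libraries set the spread. The count of 17 was 2 without stop1 or without almt1 at high phosphate, 5 without stop1 and 4 without almt1 at low phosphate, and 26 without either malate library or in a fit of the 6 libraries with no iron or malate treatment. DESeq2 called 8, all of them lower, among them KRP7 and AUR2. Fold change rose with exonic length over all loci in this comparison (Spearman's rho = 0.34), and the G2 and M genes have a median exonic length of 1826 bases against 1749 over all loci tested. With an offset for length, 10 genes passed, all lower, of which 5 were of G2 and M. The part of length in the other calls was not tested. Wild type at low phosphate, the library with 44.9% of reads at more than 1 place, was the lowest of 9 for 23 of the 57 genes, against 14.4% of all loci tested. Among the 6 libraries at high or low phosphate alone it was the lowest for 27 of the 57 genes, against 25.1% of all loci. The part of its makeup in these counts was not tested. Over 50-base stretches of exon, 17.0% of CYCB2;3, 0.468% of AUR1 and none of the other 15 genes called lower were found elsewhere in the genome.

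The change at low phosphate was also read within each genotype from its own pair of libraries, as the log2 ratio of CPM with a 95% interval for counting error only. For CYCB2;3 it was -1.11 (-1.29 to -0.93) in wild type, -0.53 (-0.67 to -0.39) in stop1 and -0.44 (-0.57 to -0.31) in almt1. The ratio was negative in all 3 genotypes, and the wild-type interval did not overlap those of the mutants. For AUR2 it was -0.97 (-1.16 to -0.79) in wild type, -0.22 (-0.37 to -0.06) in stop1 and 0.03 (-0.10 to 0.17) in almt1. For KRP7 it was -1.78 (-2.39 to -1.22) in wild type, 0.21 (-0.18 to 0.61) in stop1 and 0.02 (-0.28 to 0.31) in almt1, so the inhibitor was lower at low phosphate in the wild-type pair alone among these 3 pairs. CCS52A1, which directs the APC/C in endoreduplication, went in opposite directions, with -0.38 (-0.54 to -0.23) in wild type, 0.47 (0.33 to 0.60) in stop1 and 0.49 (0.38 to 0.61) in almt1. The mitotic activator CDC20.1 was higher at low phosphate in each genotype, with 0.54 (0.35 to 0.74), 0.31 (0.14 to 0.48) and 0.32 (0.16 to 0.47). MCM7 likewise had ratios of 0.37 (0.20 to 0.54), 0.36 (0.21 to 0.52) and 0.42 (0.29 to 0.56), which overlap across the genotypes. These intervals leave out the spread between plants and growths, which single libraries cannot show.

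In the mutants none of the 57 genes passed at low against high phosphate, where 5.41% of all loci passed in either direction, 2.3% higher and 3.11% lower. At an unadjusted p under 0.05 edgeR listed 8 higher and 8 lower, and DESeq2 called 0 after adjustment. The median log2 change over the G2 and M genes was -0.04 in the fit, and from single libraries it was -0.11 in stop1 and 0.03 in almt1, against -0.61 in wild type. Without either malate library 14 genes passed (6 higher, 8 lower), without the low-iron library 1 passed (lower), and without any iron or malate library 12 passed (4 higher, 8 lower). Those 12 included the B-type cyclins CYCB2;1 (-0.52), CYCB2;2 (-0.41) and CYCB2;3 (-0.49) and AUR3 (-0.43) among the lower and CCS52A1 (0.47), CYCD5;1 (0.44), MCM7 (0.39) and PCNA1 (0.39) among the higher, on the log2 scale. With the length offset CYCB2;3 alone passed (log2 change -0.49, edgeR adjusted p = 0.0430).

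The difference between the wild-type and mutant responses to low phosphate was tested as an interaction. None of the 57 genes passed, where 1.25% of all loci did, 0.688% with a higher and 0.561% with a lower response in wild type. At an unadjusted p under 0.05 edgeR listed 16 genes with a lower and 3 with a higher response in wild type, and DESeq2 called CYCD1;1 (-1.84). KRP7 had the smallest p, with a response 1.88 lower on the log2 scale in wild type (log2 difference -1.88, SE 0.36, edgeR adjusted p = 0.0677). The median difference was -0.32 over the G2 and M genes and -0.13 over the S genes, against 0.07 over all loci. In the fit of 6 libraries with no iron or malate treatment, 10 genes passed with a lower response in wild type, of which 6 were of G2 and M. Outside that class they were CYCD1;1, KRP7, CCS52A1 and SIM. Without either malate library 14 passed (2 higher, 12 lower), so whether the wild-type response differed for a given gene rests on the libraries that set the spread.

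**Figure D3:**
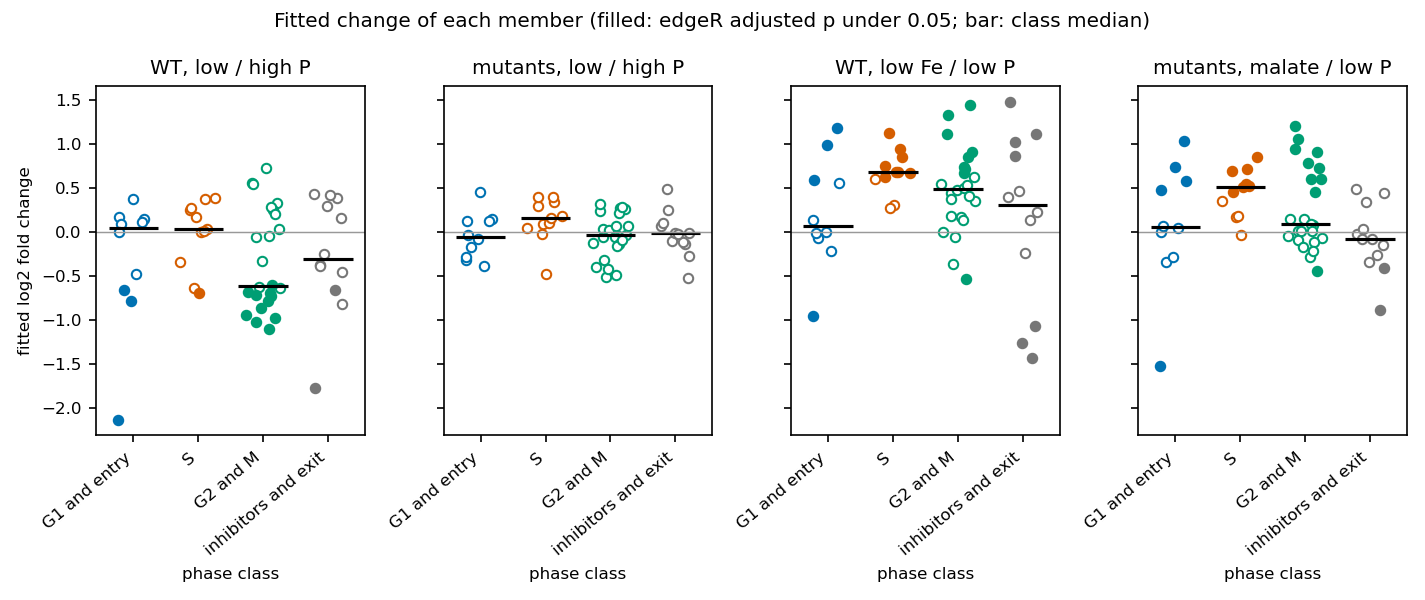
Each point is the fitted log2 fold change of 1 gene in 1 of 4 comparisons, by phase class. Filled points had an edgeR adjusted p under 0.05 and bars mark class medians. The G2 and M median was -0.61 in wild type at low against high phosphate and -0.04 in the mutants, and the S median was 0.68 with low iron and 0.50 with malate.

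Mutants were then set against wild type on the same medium. At high phosphate none of the 57 genes passed, and the background was 0.0%. At an unadjusted p under 0.05 edgeR listed CYCB3;1 and CYCB1;2, both higher in the mutants, and DESeq2 called 0. Over all loci 893 had an unadjusted p under 0.05. At low phosphate 4 genes were higher in the mutants and none lower, where 6.6% of all loci passed in either direction, 2.12% higher and 4.48% lower. KRP7 was 3.37-fold higher (log2 difference 1.75, SE 0.38, edgeR adjusted p = 0.0450). CCS52A1, an APC/C activator that acts in endoreduplication and at the meristem's border, stood at 33.4, 25.6 and 52.0 CPM in wild type, 30.2, 41.7 and 42.6 in stop1 and 30.8, 43.4 and 38.02 in almt1. Both mutants at low phosphate stood above wild type at low phosphate, by 0.73 in the fit (SE 0.14, adjusted p = 0.0321). CDKB2;1 was higher by 0.70 (SE 0.14, adjusted p = 0.0367) and CYCB2;3 by 0.62 (SE 0.13, adjusted p = 0.0450). The count of 4 was 0 without stop1 at low phosphate, almt1 at low phosphate or almt1 at high phosphate, and 1 without stop1 at high phosphate. With total gene counts as scaling 4 were higher and 1 lower. The count was 7 with DESeq2, all higher, and 9 with a stop1 against almt1 term (7 higher, 2 lower).

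Low iron at low phosphate was compared within wild type with both low and high phosphate. Against low phosphate 23 genes rose and 5 fell, 49.1% of the 57, where 30.6% of all loci passed, 12.5% higher and 18.1% lower. Against high phosphate 20 rose and 16 fell, where 43.2% of all loci passed, 21.4% higher and 21.9% lower. The first of these shares its reference library with the comparison above, so genes low in wild type at low phosphate stand higher in it by construction. The second shares its reference, wild type at high phosphate, with the comparison of low against high phosphate in wild type. Genes high in that library therefore stand lower in both by construction. The G2 and M median was 0.48 against low phosphate and -0.05 against high phosphate, and the S median was 0.68 and 0.70.

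Of the 8 MCM and PCNA genes 7 rose in both comparisons. All 6 MCM genes, the subunits of the helicase that unwinds DNA at replication origins, passed, with log2 changes from 0.67 to 0.94 against low phosphate and from 0.68 to 1.31 against high phosphate. MCM7 stood at 20.8, 26.9 and 51.6 CPM in wild type, 22.7, 29.2 and 54.9 in stop1 and 23.5, 31.5 and 44.9 in almt1. MCM4 stood at 21.2, 27.6 and 44.0 CPM in wild type, 24.0, 28.8 and 56.0 in stop1 and 24.3, 26.2 and 43.3 in almt1. MCM5 stood at 20.0, 23.6 and 39.7 CPM in wild type, 21.4, 29.8 and 49.2 in stop1 and 24.2, 26.4 and 41.9 in almt1. The other subunits had smaller spans. MCM2 stood at 36.9 to 42.2 CPM in the 6 libraries without iron or malate treatment and at 56.5 to 61.1 CPM in the 3 with one. MCM3 stood at 25.1 to 36.1 CPM in the 6 and at 45.3 to 52.3 CPM in the 3, and MCM6 at 17.1 to 19.8 CPM and 27.2 to 30.1 CPM. For each of the 6 genes the low-iron and malate libraries stood above the other 6 without overlap, as they did for 20.3% of all loci tested. MCM7 rose 1.92-fold against low phosphate (log2 change 0.94, SE 0.19, edgeR adjusted p = 0.0168) and 2.48-fold against high phosphate (adjusted p = 0.00469). PCNA1, the sliding clamp of DNA polymerase, stood at 23.0, 27.7 and 42.6 CPM in wild type, 22.0, 30.6 and 44.6 in stop1 and 24.5, 30.7 and 39.6 in almt1, and rose by 0.62 and 0.89 on the log2 scale. PCNA2 stood at 40.4, 31.9 and 48.5 CPM in wild type, 34.8, 35.1 and 51.3 in stop1 and 36.5, 38.3 and 42.4 in almt1 and did not pass. CYCA3;1, an S-phase cyclin, stood at 7.25, 4.66 and 10.2 CPM in wild type, 7.75, 6.95 and 8.97 in stop1 and 8.03, 8.57 and 8.43 in almt1, and rose against low phosphate by 1.13 (SE 0.24, adjusted p = 0.0193).

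The regulators of G1 split. E2FA, a transcription factor that switches on S-phase genes, stood at 4.67, 5.05 and 11.4 CPM in wild type, 6.01, 7.09 and 15.3 in stop1 and 5.85, 5.88 and 11.4 in almt1, and rose 2.26-fold against low phosphate (log2 change 1.18, SE 0.24, adjusted p = 0.0160). RBR1, the retinoblastoma protein that binds E2F, stood at 35.8, 35.7 and 53.8 CPM in wild type, 41.0, 47.4 and 61.1 in stop1 and 36.7, 37.5 and 56.5 in almt1. CYCD5;1 stood at 6.41, 8.34 and 16.5 CPM in wild type, 8.74, 11.99 and 20.4 in stop1 and 6.78, 9.26 and 15.1 in almt1. All 3 genes were highest in the low-iron and malate libraries, and against low phosphate RBR1 rose by 0.59 and the cyclin by 0.98 on the log2 scale. CYCD3;3, a cyclin of the CYCD3 group that sustains division, went the other way and stood at 36.4, 41.0 and 21.2 CPM in wild type, 29.0, 23.5 and 23.2 in stop1 and 34.3, 28.5 and 28.7 in almt1. It fell by 0.95 against low phosphate (SE 0.15, adjusted p = 0.00834) and by 0.78 against high phosphate. Against high phosphate 5 of the 7 D-type cyclins fell, and the 2 that rose were CYCD3;1 and CYCD5;1.

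CDC20.1 and CDC20.2, which direct the APC/C in mitosis, both rose. CDC20.1 stood at 15.1, 22.0 and 55.3 CPM in wild type, 20.05, 24.8 and 59.5 in stop1 and 18.3, 22.8 and 50.4 in almt1. CDC20.2 stood at 14.1, 16.2 and 44.2 CPM in wild type, 18.8, 22.0 and 42.0 in stop1 and 15.9, 20.18 and 36.9 in almt1. The low-iron and malate libraries were at 36.9 CPM or more for both genes and the other 6 at 24.8 CPM or less. These 3 libraries stood above the other 6 for 20.3% of all loci tested. CDC20.1 rose 2.51-fold against low phosphate (log2 change 1.33, SE 0.15, edgeR adjusted p = 0.00400) and 3.65-fold against high phosphate (adjusted p = 0.00169). The genes are near-identical neighbours: 33.2% of the 50-base exon stretches of CDC20.1 and 36.3% of those of CDC20.2 occur elsewhere in the genome, so the division of reads between them is uncertain.

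With low iron against low phosphate 2 A-type and 3 B-type cyclins rose and none of either type fell. Against high phosphate the mitotic cyclins moved both ways. CYCB3;1 stood at 5.05, 7.41 and 16.0 CPM in wild type, 7.16, 9.19 and 18.2 in stop1 and 8.18, 8.90 and 16.6 in almt1, and rose 3.16-fold against high phosphate (log2 change 1.66, SE 0.21, adjusted p = 0.00353). CYCB1;2 stood at 19.8, 23.5 and 42.6 CPM in wild type, 23.9, 30.0 and 40.8 in stop1 and 25.4, 29.3 and 40.1 in almt1. CYCA2;3 stood at 10.01, 12.5 and 23.5 CPM in wild type, 10.4, 12.4 and 24.4 in stop1 and 12.6, 15.1 and 20.9 in almt1. These 3 genes rose against both reference libraries. CYCA2;2, CYCB2;1, CYCB2;2 and CYCB2;3, with log2 changes of -0.85, -0.99, -0.68 and -0.61, fell against high phosphate, as did CDKB1;1 (-0.66), AUR2 (-0.57) and AUR3 (-0.92). The other 5 of the 11 G2 and M genes that fell in wild type at low phosphate, AUR1 among them, did not pass in low iron against high phosphate.

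The inhibitors also moved both ways. KRP1, which binds complexes of D-type cyclins and CDKs, stood at 6.27, 8.19 and 3.03 CPM in wild type, 6.17, 5.66 and 2.43 in stop1 and 7.03, 6.27 and 4.13 in almt1. The low-iron and malate libraries were its 3 lowest, and against low phosphate it fell 2.70-fold (log2 change -1.43, SE 0.31, adjusted p = 0.0190). KRP6 stood at 10.9, 13.3 and 5.55 CPM in wild type, 7.79, 9.68 and 6.52 in stop1 and 10.7, 8.54 and 8.002 in almt1. It fell by 1.27 (SE 0.28, adjusted p = 0.0200) and KRP4 by 1.07 (SE 0.19, adjusted p = 0.0118). Low iron was also the lowest library for KRP4, which went from 19.3 to 9.18 CPM in wild type, while the other 8 libraries lay between 9.94 and 19.3 CPM. KRP7 rose by 1.48 (SE 0.31, adjusted p = 0.0173), as did WEE1 by 1.11, CCS52A1 by 1.02 and SMR1 by 0.86. Against high phosphate KRP1, KRP4, KRP6 and SIM fell and CCS52A1 rose, while KRP7, WEE1 and SMR1 did not pass.

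The remaining inhibitors and activators are given by their ranges. KRP2 stood at 17.1 to 25.4 CPM in the 6 libraries without iron or malate treatment and at 13.5 to 21.3 CPM in the 3 with one, so the sets overlapped. KRP3 stood at 2.58 to 3.48 CPM in the 6 and at 4.00 to 5.52 CPM in the 3, without overlap, an order seen for 20.3% of all loci tested. KRP5 stood at 4.07 to 6.53 CPM and 5.604 to 7.31 CPM, with overlap. SIM stood at 26.2 to 41.5 CPM in the 6 and at 28.6 to 30.7 CPM in the 3, and its relative SMR1 at 15.1 to 26.6 CPM and 22.2 to 30.9 CPM. WEE1, the kinase that holds CDKs inactive after DNA damage, stood at 3.78 to 7.48 CPM in the 6 and at 8.17 to 9.41 CPM in the 3, without overlap. For SIM, SMR1, WEE1 and KRP5, the lowest of the 9 libraries was wild type at low phosphate. CCS52B, an APC/C activator of mitosis, stood at 18.6 to 28.2 CPM in the 6 and at 31.9 to 38.1 CPM in the 3. CCS52A2, which acts in the stem cell niche, stood at 6.12 to 9.07 CPM in the 6 and at 6.47 to 7.68 CPM in the 3, and it did not pass in any comparison.

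The low-iron counts also moved with the libraries in the fit. Against low phosphate the count of 28 was 11 without either mutant at high phosphate, 17 without either mutant at low phosphate, 35 without either malate library and 18 with DESeq2. Against high phosphate the count of 36 was 18 without stop1 at high phosphate, 17 without almt1 at high phosphate and 22 with DESeq2.

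Malate was examined within the mutants, which were grown at low phosphate with and without it. Of the 57 genes 20 rose and 4 fell, where 36.6% of all loci passed, 17.2% higher and 19.4% lower. The genes that rose comprised the 6 MCM genes (log2 changes of 0.50 to 0.85), PCNA1, E2FA, RBR1, CDC20.1, CDC20.2, CCS52B and 8 cyclins (3 of A2 type, 3 of B type and 2 of D type). CDC20.1 rose 2.30-fold (log2 change 1.202, SE 0.11, edgeR adjusted p = 0.00537), E2FA 2.05-fold (adjusted p = 0.00881) and CYCB3;1 1.92-fold (adjusted p = 0.00871). CYCA2;1, an A2-type cyclin, stood at 1.43, 1.37 and 1.86 CPM in wild type, 1.66, 1.92 and 3.48 in stop1 and 1.59, 1.42 and 3.39 in almt1. The malate libraries stood above all others, and low iron in wild type, at 1.86 CPM, was within the range of 1.37 to 1.92 CPM of the 6 libraries without either treatment. With malate it rose by 1.05 (SE 0.23, adjusted p = 0.0191). The genes that fell were CYCD1;1 (log2 change -1.52), KRP1 (-0.89), AUR2 (-0.44) and KRP2 (-0.41). The S median was 0.50 and the G2 and M median 0.08, against -0.02 over all loci tested. Scaling by total gene counts raised the median of all loci here by 0.15, to 0.12, and the S and G2 and M medians were then 0.65 and 0.23. The count of 24 was 0 without stop1 at low phosphate, 1 without almt1 at low phosphate and 11 without either mutant at high phosphate.

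The low-iron comparison in wild type against low phosphate and the malate comparison in the mutants share no library, although they share the fitted spread. Of the 23 genes that rose with low iron 16 also rose with malate, which is 69.6% of the former and 80.0% of the 20 that rose with malate. Over all loci the shared rises were 38.5% of those with low iron and 27.95% of those with malate. KRP1 fell in both, and no gene passed in opposite directions. Across the 57 genes Pearson's r between the log2 changes was 0.60 and Spearman's rho 0.66, and across all 21229 loci they were 0.31 and 0.37. Genes are not independent replicates, and these values are given without a test. Genes that differed between them include CYCD1;1, with a log2 change of 0.14 under low iron and -1.52 with malate, and KRP7, with 1.48 and -0.02. Their treated levels were close, at 7.87 to 13.2 CPM for CYCD1;1 and 4.24 to 5.38 CPM for KRP7 over the 3 libraries. The reference levels differed: wild type at low phosphate was the lowest of the other 6 libraries for both, at 9.96 and 1.52 CPM. The low-iron and malate libraries stood all above the other 6 for 24 of the 57 genes, against 20.3% of all loci, and all below for CYCD2;1 and KRP1, against 18.6%. By phase the 24 comprise 9 of 11 S, 9 of 24 G2 and M, 4 of 10 G1 and entry, and 2 of 12 inhibitor and exit genes.

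**Figure D4:**
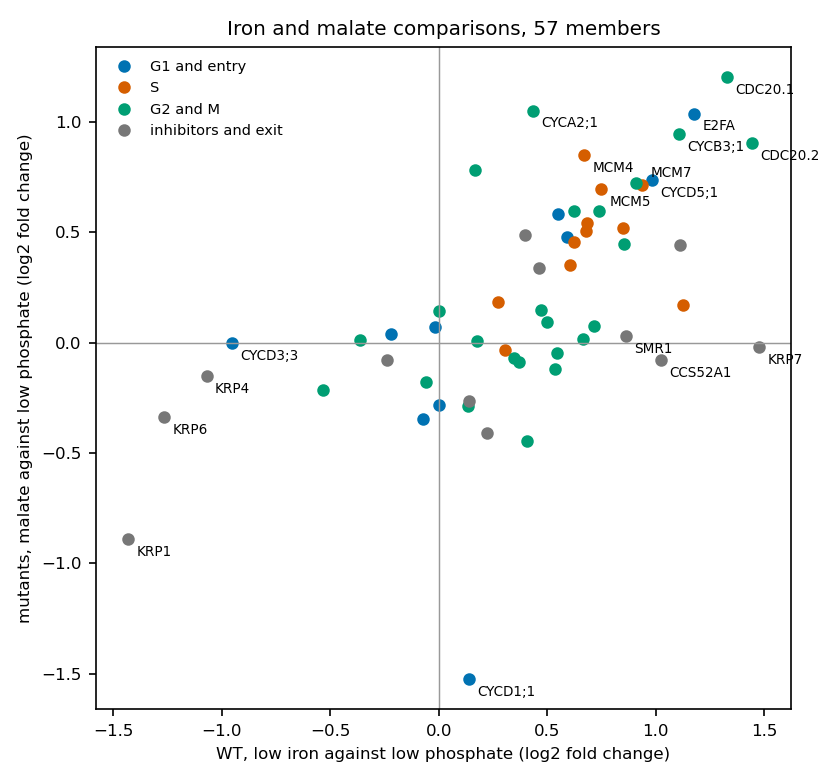
Each point is 1 gene, with its log2 fold change for low iron against low phosphate in wild type on the x axis and for malate against low phosphate in the mutants on the y axis, coloured by phase. The MCM genes, E2FA, CYCB3;1 and the CDC20 genes lie in the upper right, KRP1 in the lower left, and CYCD1;1 and KRP7 close to 1 axis.

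Exonic length moved with these comparisons over the whole transcriptome. Spearman's rho of log2 change with exonic length over 21114 loci was 0.18 for low iron against low phosphate, 0.41 for low iron against high phosphate and 0.36 for malate. The MCM genes have a median exonic length of 2892 bases and the S genes of 2649, against 1201 for the inhibitor and exit genes and 1749 over all loci tested. With the length offset the MCM genes that passed were 2 of 6 for low iron against low phosphate (MCM3 and MCM7), 3 of 6 against high phosphate (MCM4, MCM5 and MCM7) and 3 of 6 with malate (MCM4, MCM5 and MCM7). With length and GC the counts were 2, 1 and 3 of 6, and DESeq2 without an offset called 4, 5 and 6 of 6. CDC20.1, CDC20.2, E2FA, CYCB3;1, CYCD5;1, PCNA1, CYCB1;2 and CYCA2;3 passed in all 3 comparisons with the offset, and PCNA2 then passed in all 3 as well. The S median with the offset was 0.59, 0.60 and 0.33 in the same order. RBR1 went from 0.59 to -0.21 and SIM from -0.52 to 0.06 in low iron against high phosphate, and neither then passed. Whether length or the treatments set the remaining changes was not tested.

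**Figure D5:**
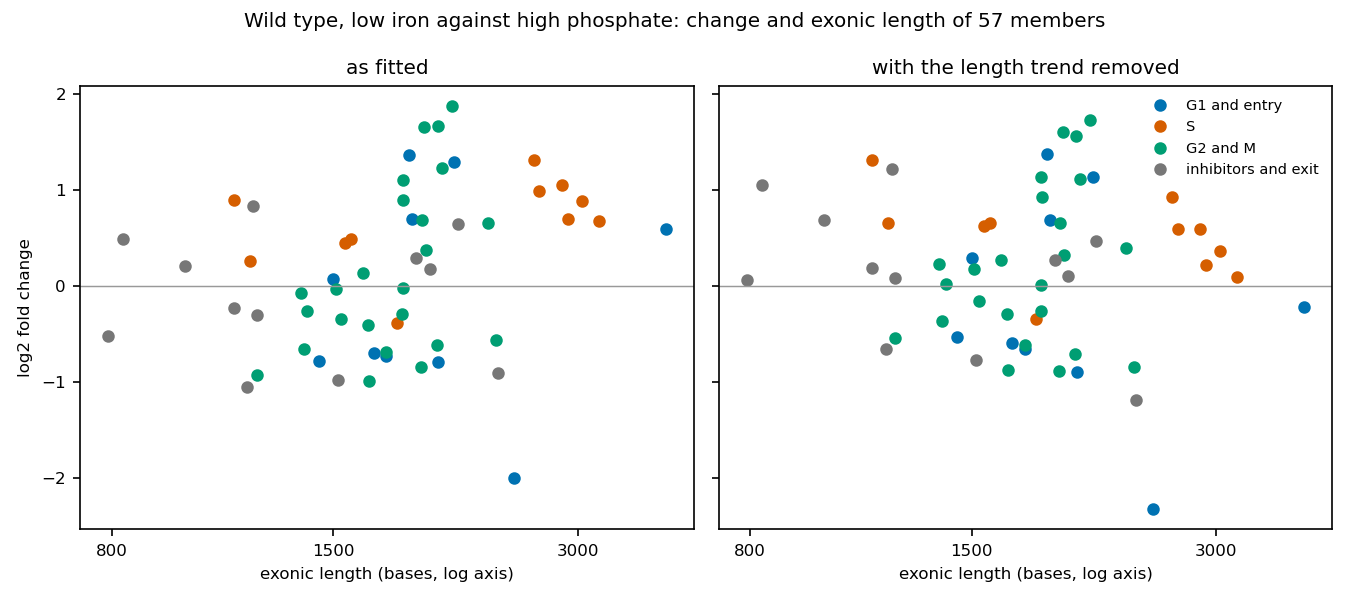
Each point is 1 of the 57 genes, with exonic length on a log axis and the log2 fold change of low iron against high phosphate in wild type as fitted (left) and with the length trend of all loci removed (right). The CDC20 genes and CYCB3;1 stay above 1.5 in both panels, and the 6 MCM genes move from 0.68 to 1.31 on the left to lower values on the right.

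Other genes of the cycle, 55 by list, were read beside these. Of the 53 that could be tested, 2 rose and 4 fell in wild type at low phosphate (11.3%), below the 21.8% of all loci that passed. CKS1 and CKS2, small proteins that dock on CDKs, stood at 75.6, 34.0 and 30.6 CPM and at 74.8, 26.3 and 33.1 CPM in wild type and fell by 1.15 (SE 0.19, edgeR adjusted p = 0.0153) and 1.51 (SE 0.26, adjusted p = 0.0176). CYCD4;2 also fell (log2 change -1.304). MYB3R1, a MYB factor that binds the mitosis-specific element, stood at 16.7, 31.4 and 52.3 CPM in wild type, 22.2, 29.3 and 64.1 in stop1 and 25.4, 26.7 and 54.3 in almt1, and rose by 0.91 (SE 0.20, adjusted p = 0.0274). Its direction was opposite to that of the B-type cyclins that fell. KEULE, a protein of cell plate formation, rose by 0.60. In the mutants none passed at low against high phosphate (edgeR, with 3 at an unadjusted p under 0.05).

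With low iron 13 of the 53 rose and 2 fell against low phosphate (28.3%, where 30.6% of all loci passed), and 19 rose and 4 fell against high phosphate (43.4%, against 43.2%). With malate 15 rose and 8 fell (43.4%, against 36.6%). The shares in either direction for low iron were near the background, but the directions were not. Over all loci 12.5% rose and 18.1% fell against low phosphate, and 21.4% rose and 21.9% fell against high phosphate. With malate 17.2% of all loci rose and 19.4% fell. ORC3, a subunit of the origin recognition complex, rose by 0.93 with low iron against low phosphate, by 1.4996 against high phosphate and by 0.94 with malate. MYB3R1 rose by 1.64 with low iron against high phosphate and by 1.08 with malate, and ICU2, the catalytic subunit of DNA polymerase alpha, by 1.298 and 0.92. CKS1 fell by 1.303 and 0.66. RNR2A, a subunit of ribonucleotide reductase, fell with low iron against low phosphate (log2 change -1.24) and was lower in the mutants than in wild type at low phosphate (-0.83, SE 0.17, adjusted p = 0.0373), the only one of the 53 that passed there. CYCA3;3 and CYCD7;1 had 0 counts in every library.

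Markers of the cell types that a root tip holds moved with the same libraries, and their part in the results was not tested. No marker list had a summed level of 0 in any library. Summed over 6 root hair genes, wild type stood at 371, 818 and 965 CPM, stop1 at 371, 516 and 582, and almt1 at 478, 543 and 720. Summed over 4 xylem genes, wild type stood at 449, 182 and 217 CPM, stop1 at 491, 376 and 133, and almt1 at 374, 282 and 190. The xylem sum, like CYCD1;1, was lower in wild type at low phosphate, low iron and both malate libraries (217 CPM or less) than in the other 5 libraries (282 CPM or more). Summed over 6 endodermis genes, the range was 200 to 669 CPM, and over 6 stem cell niche and meristem genes it was 90.0 to 140 CPM, highest in the malate and low-iron libraries. The 6 did not move together with low iron against low phosphate, where SCR rose (log2 change 0.86), WOX5 and BBM fell (-4.01 and -1.197), 3 did not pass and the median was -0.03. The root cap sum ranged from 50.04 to 73.7 CPM with the same 3 libraries highest, and the shoot photosynthesis sum from 7.05 to 66.5 CPM. WOX5, the marker of the quiescent centre, stood at 1.78, 7.11 and 0.437 CPM in wild type and between 0.978 and 2.29 CPM in the mutants, and rose by 2.00 in wild type at low phosphate (SE 0.50, edgeR adjusted p = 0.0381). BBM, a meristem factor, stood at 5.54, 13.3 and 5.80 CPM in wild type and rose by 1.26 there (SE 0.25, adjusted p = 0.0227). Among the G2 and M genes 13 of 24 were lowest in wild type at low phosphate, against 14.4% of all loci tested.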

How the data were processed

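Polyadenylated RNA from 9 root tip samples was sequenced, 1 library per group. The authors deposited a raw count of reads for each locus. TRIzol extraction and the TruSeq kit are given per the labels' protocols, strand was not kept, and the submitters' processing notes name TopHat2, HTSeq and the TAIR10 genome, without versions. Summary lines for unassigned reads (6.95% to 50.1% of recorded reads) were left out. Gene counts of 20619740 to 37189056 per library set the precision, and intervals are 95% Poisson and cover counting error only.

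Counts were tested with edgeR 4.0.16 (R 4.3.3, TMM scaling, filterByExpr at its minimum count of 10 and total of 15, robust quasi-likelihood, Benjamini-Hochberg adjustment over 21229 loci, threshold 0.05). Comparisons within genotypes used all 9 libraries with a stop1 against almt1 term (2 residual degrees of freedom), and mutants against wild type used no such term (3 residual degrees of freedom). The SE is the log2 change divided by the square root of the F statistic. DESeq2 1.42.0, other scalings, no filter, left-out libraries, a fit of 6 libraries and, chosen after seeing the data, offsets for exonic length and GC content were alternatives. The scripts were checked on simulated counts.

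The genes and lists were chosen with earlier results of these data known. Any of the 57 genes may be named, and full levels are given for the 3 largest passing changes of each role and the largest change in wild type at low phosphate. CYCB1;3, CYCB1;1 and CDKA;1 were added after their values were seen, as were CDKB2;2 and PCNA2, and so were the 6 genes whose ratios are given within each genotype. Gene models and sequences are from RefSeq's TAIR10.1, which holds 32835 of the loci and all 57 genes, and no coordinates were carried between builds. In the title of the stop1 malate sample the phosphate level differs from its characteristics, which were followed. Of the 57 genes 18 overlap another counted locus. They are CYCA2;3, CYCA3;4, CYCD1;1, CYCD3;1, CYCD3;2, the CDKB genes, KRP4, CCS52B, the Aurora kinases, MCM7, PCNA2, E2FA and RBR1.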

Additional observations from a re-analysis of the deposited data

Results flagged for a closer look

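Reads outside the gene counts stood apart in 1 library: in wild type at low phosphate 44.9% of recorded reads aligned at more than 1 place, against 4.19% to 14.3% in the other 8 libraries. All comparisons of wild type at low phosphate rest on this library alone, and the part of its makeup in the lower G2 and M levels was not tested.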

How the results depend on the processing

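No paired analysis was possible because every group had 1 library and the labels give no replicate numbers. The number of the 57 genes that passed was within 1.5 times the main count with DESeq2-style size factors and with no filter on low counts in all 8 comparisons. In wild type at low against high phosphate the 17 genes became 8 with DESeq2, 26 in the fit of 6 libraries, 10 with an offset for exonic length and 10 with length and GC, and 2 to 26 when 1 library was left out. In the mutants 0 became 2 with total counts as scaling, 12 with 6 libraries, 1 with length, 1 with length and GC, and 0 to 14 with 1 library left out. For the response difference 0 became 1 with total counts, 1 with DESeq2, 10 with 6 libraries and 0 to 14 with 1 library left out. Low iron gave 18 in place of 28 against low phosphate and 22 in place of 36 against high phosphate with DESeq2, and 11 to 35 and 17 to 41 with 1 library left out. With malate 24 became 0 to 25 with 1 library left out. With the mutants set against wild type, the 4 genes at low phosphate became 7 with DESeq2, 9 with a stop1 against almt1 term, and 0 to 5 with 1 library left out, and at high phosphate the count stayed at 0 to 0. Each of the libraries that moved a count is named beside the result; the cause was not tested.

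The wild-type log2 change of 2 genes changed sign for low iron against high phosphate: SIM became 0.0622 with the length offset and 0.0388 with length and GC, and RBR1 became -0.21 and -0.28. Of 109 calls, 72 held with DESeq2, 104 with total counts, 109 with DESeq2-style size factors, 79 with the length offset and 74 with length and GC; 553 of 815 held with 1 library left out, and none of those changed sign. At the depth of wild type at low phosphate, KRP7 rested on few reads, and its level has a counting interval of 1.03 to 2.16 CPM.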
